A study of Saccharomyces cerevisiae with 8 samples.

Results

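The 9 genes described here encode enzymes, an enzyme subunit and a carrier by which *Saccharomyces cerevisiae* makes arginine: *ARG2*, *ARG5,6*, *ARG8*, *ARG7*, *ORT1*, *CPA1*, *ARG3*, *ARG1* and *ARG4*. They were taken by name from a table of 7105 genes, as a pathway for which earlier results of these data were known, and all 9 passed the filter on low counts that left 5832 genes for testing. RNA-seq libraries of polyadenylated RNA came from 8 cultures of BY4743, a diploid strain of the S288C background. They were grown in medium without uracil to hold a high-copy *URA3* plasmid. The groups, with 2 replicates each (numbered 0 and 1, made by different experimenters), were cells with mtDNA and the empty vector (ρ+ vector), cells without mtDNA and the empty vector (ρ0 vector), and cells without mtDNA carrying *TIP41* (ρ0 *TIP41*) or *PDE2* (ρ0 *PDE2*). *PDE2* encodes a phosphodiesterase that removes cyclic AMP and so lowers protein kinase A activity, and *TIP41* encodes a regulator of the TOR pathway. Every ρ0 culture had been in 25 µg/ml ethidium bromide for 24 h and no ρ+ culture had, so that the drug and the loss of mtDNA cannot be told apart. For RNA-seq the authors state logarithmic phase for the ρ+ cultures and give no growth phase for the ρ0 cultures.

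Arginine is made from glutamate. In mitochondria, acetylated intermediates lead to ornithine, which Ort1p carries to the cytosol. There ornithine is joined with carbamoyl phosphate to give citrulline, and aspartate is then added and fumarate removed to leave arginine. When arginine is plentiful, a complex of Arg80p, Arg81p, Arg82p and Mcm1p represses many of these genes and activates those for arginine breakdown. When amino acids are scarce, translation of *GCN4* mRNA rises and Gcn4p activates genes of many amino acid pathways, these among them.

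The letters TGACTC are the core of the site bound by Gcn4p. They were searched for on either strand in the 500 bases before each start codon of the R64 genome (RefSeq annotation), and were present before all 9 genes, against 758 of 5984 protein-coding genes (12.7%). Of the 9, 4 held 2 copies (*ARG5,6*, *ARG3*, *ARG1* and *CPA1*), against 1.44% of all such windows. In a list of 40 genes that Gcn4p activates outside arginine synthesis, most of them in other amino acid pathways, 30 windows held the letters. Of these 40, 9 held 2 or more copies (22.5%). The letters were also present before 3 of 4 genes of arginine uptake and breakdown, *CAR1* among them. A match describes the sequence and does not show binding. The windows below are shown because these 6 genes had the largest differences in mRNA level described further on. Each is read on the strand of its gene, and capitals mark the motif. For *ARG5,6*, *ARG3*, *ARG1* and *CPA1* the copy farther from the start codon is given.
*ARG5,6* (chrV:295175-295204, plus strand): ttcttatccgaaTGACTCagtctacatcaa
*ARG7* (chrXIII:396514-396543, minus strand): ggacaggtaggaTGACTCactgcgtaattc
*CPA1* (chrXV:882403-882432, plus strand): tggaagggtgttTGACTCatcatcgcatcg
*ARG3* (chrX:268349-268378, plus strand): cgttagcaaccaTGACTCcagtaaacaaaa
*ARG1* (chrXV:218854-218883, plus strand): gtgattttttagTGACTCatgtcgcatttg
*ARG4* (chrVIII:141564-141593, minus strand): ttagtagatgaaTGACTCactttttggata

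The motif began 484 bases before the start codon of *CPA1*, 438 before *ARG3*, 345 before *ARG1*, 223 before *ARG5,6*, 179 before *ARG4* and 152 before *ARG7*. The nearer copy of *ARG3*, 314 bases before its start codon, reads TGACTC followed by at, as the sites of *ARG1* and *CPA1* above do. The nearer copy of *CPA1*, 295 bases before its start codon, reads TGACTC followed by gt. *ARG3* and *CPA1* are the 2 genes that passed the tests below, and only the nearer copy of *ARG3* is shown here with its surroundings.
*ARG3*, nearer copy (chrX:268473-268502, plus strand): agggtcacgtcgTGACTCatatgctttctt

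Libraries held 1389579 to 4884282 estimated fragments in genes, and the log2 levels of the 2 replicates of a group correlated across genes at 0.972 to 0.978. The plasmid-borne genes stood at 581 and 639 CPM (fragments per 1000000 in genes) for *PDE2* with its plasmid against 114 to 184 in the other libraries, and at 759 and 600.3 CPM for *TIP41* against 41.2 to 67.5. The 55 genes listed on mtDNA had 9 and 6 fragments in the ρ+ libraries and 0 in each ρ0 library. Selection for poly(A) tails keeps little mitochondrial RNA in yeast, so this is a weak check of the labels.

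Levels are given below as CPM scaled between libraries by the TMM method, and 1 library is 1 culture. Between genes, levels can only be compared per length, as FPKM. On that scale *CPA1* led in ρ+ cells at 236 ± 21.4 FPKM (SD, n = 2), followed by *ARG4* at 85.0 ± 2.04 and *ARG7* at 65.4 ± 8.004, and *ARG3* was lowest at 7.90 ± 3.56. *ARG1* and *ORT1* (32.5 and 31.1 FPKM) overlapped between libraries, as did *ARG5,6* and *ARG2* (24.7 and 24.3 FPKM). In ρ0 vector cells *CPA1* again led at 511 ± 8.82 FPKM, *ARG1* followed *ARG4* at 208 ± 199, where it had been below *ARG8* in ρ+ cells, and *ARG2* had the lowest mean at 24.3 ± 2.94. The order of these means was not shared by both libraries: in replicate 0 *ARG3* (19.3 FPKM) lay below *ARG2* (22.2) and *ARG1* (66.6) below *ARG7* (69.2). The SD of *ARG1* there was nearly as large as its mean, which is taken up below.

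*CPA1* encodes the small subunit of the carbamoyl phosphate synthetase of arginine synthesis. It stood at 272 and 288 CPM in the ρ+ vector libraries, 617 and 597 in ρ0 vector, 515 and 479.7 with *TIP41*, and 430.3 and 378 with *PDE2*. The 4 groups did not overlap, and each ρ0 group lay above ρ+. *CPA1* was also the steadiest of the 9 genes between ρ0 vector replicates. Its mRNA carries a short upstream reading frame (*YOR302W*, 78 bases, chrXV:882765-882842, ending 56 bases before the *CPA1* start codon) whose peptide is known to stall ribosomes when arginine is plentiful, after which the mRNA decays sooner. That frame is a separate entry in the deposited table, listed at 0 in all 8 libraries. Whether so short an entry could be given fragments in the counting was not tested.

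*ARG3*, ornithine carbamoyltransferase, had the lowest mean FPKM of the 9 genes in each group but ρ0 vector. Its levels were 7.998 and 4.91 CPM in ρ+ vector, 14.8 and 33.1 in ρ0 vector, 6.93 and 8.84 with *TIP41*, and 7.70 and 7.77 with *PDE2*. Both ρ0 vector libraries were above the other 6. These levels rest on 7 to 82 estimated fragments a library, the lowest in ρ+ vector replicate 1.

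*ARG1*, argininosuccinate synthase, gave 46.6 and 35.1 CPM in ρ+ vector, 88.6 and 412 in ρ0 vector, 46.2 and 94.6 with *TIP41*, and 38.5 and 50.03 with *PDE2*. The ρ0 vector libraries lay above ρ+ and above ρ0 *PDE2*, but replicate 0 lay below 1 of the ρ0 *TIP41* libraries. *ARG4*, argininosuccinate lyase, gave 110.3 and 114 CPM in ρ+ vector, 169 and 464 in ρ0 vector, 73.2 and 130.5 with *TIP41*, and 73.4 and 85.9 with *PDE2*. Both ρ0 vector libraries were the highest of the 8, and both ρ0 *PDE2* libraries lay below both ρ+ libraries.

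Of the mitochondrial steps to ornithine, *ARG5,6* encodes a pair of enzymes, the kinase and the reductase that act on acetylglutamate. It gave 61.5 and 63.8 CPM in ρ+ vector, 78.2 and 169 in ρ0 vector, 52.5 and 59.8 with *TIP41*, and 45.0 and 51.0 with *PDE2*. The ρ0 vector libraries were the highest of the 8 and the *TIP41* and *PDE2* libraries were all below ρ+. *ARG7*, the ornithine acetyltransferase that recycles the acetyl group, gave 70.1 and 88.4 CPM in ρ+ vector, 82.1 and 203 in ρ0 vector, 63.0 and 68.1 with *TIP41*, and 62.2 and 60.5 with *PDE2*. Here replicate 0 of ρ0 vector lay between the ρ+ libraries.

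The other 3 genes spanned narrower ranges over the 8 libraries. *ARG2*, the acetylglutamate synthase that starts the pathway, ran from 27.5 to 44.9 CPM. *ARG8*, acetylornithine aminotransferase, ran from 48.6 to 65.0 CPM. *ORT1*, the ornithine carrier of the inner membrane, ran from 18.3 to 31.5 CPM. For *ARG2* and *ORT1* the ρ+ and ρ0 vector libraries overlapped.

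**Figure D1:**
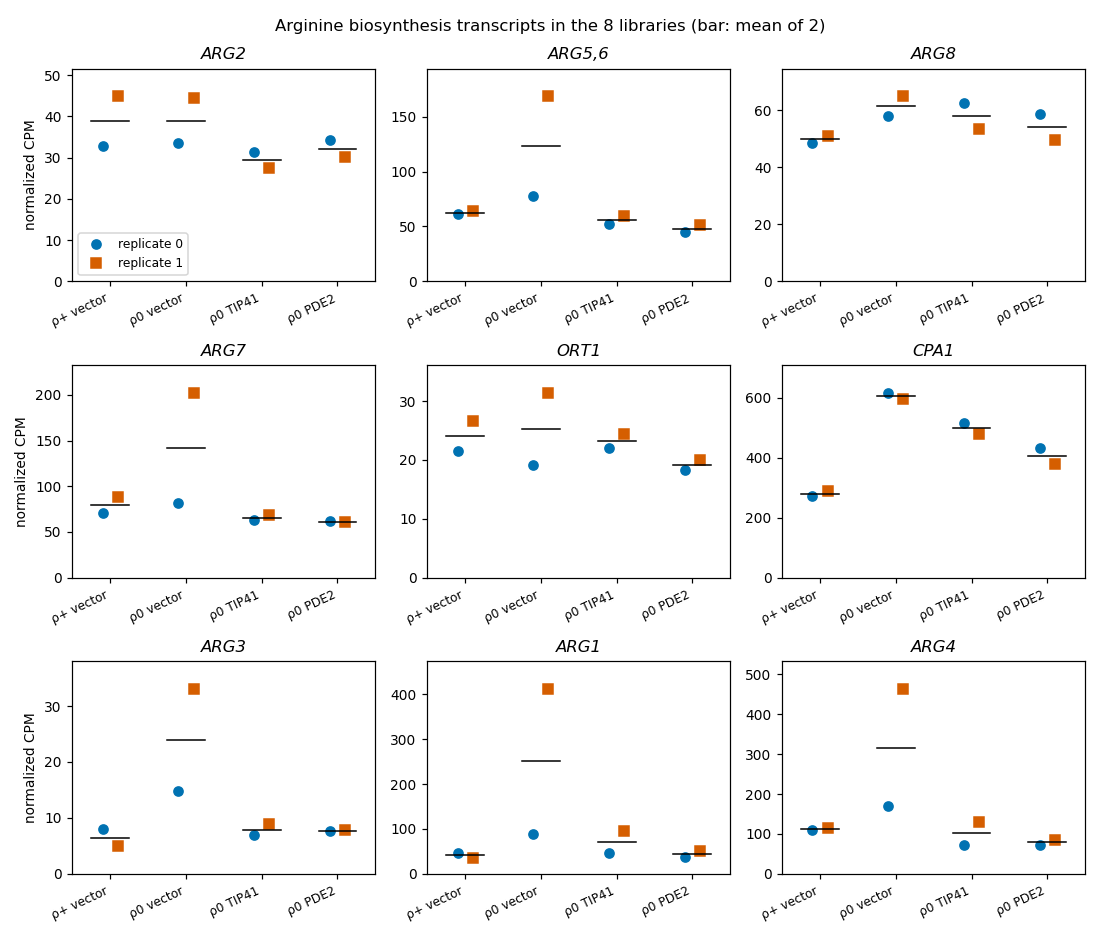
Normalized CPM (linear axes from 0, a scale for each gene) of the 9 arginine genes in the 2 libraries of each group; circles are replicate 0, squares replicate 1 and bars the mean of 2. *CPA1* kept close replicates in all groups, while *ARG1* ran from 88.6 to 412 CPM and *ARG4* from 169 to 464 CPM between the ρ0 vector libraries.

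After loss of mtDNA (ρ0 vector against ρ+ vector), *CPA1* and *ARG3* rose and the other 7 genes did not pass the test. *CPA1* was 2.17-fold higher (log2 1.117, SE 0.14, adjusted p = 1.36e-04, edgeR's quasi-likelihood test, Benjamini-Hochberg over 5832 genes), and *ARG3* was 3.34-fold higher (log2 1.74, SE 0.38, adjusted p = 0.00808). The 2 of 9 called higher compare with 7.49% of all genes tested. The largest estimate, for *ARG1*, was 5.89-fold (log2 2.56, SE 0.91) and its adjusted p was 0.164. *ARG4* followed at log2 1.497 (SE 0.58), *ARG5,6* at 0.98 (SE 0.34) and *ARG7* at 0.87 (SE 0.44), with adjusted p of 0.186, 0.115 and 0.279. *ARG8*, *ORT1* and *ARG2* had log2 values of 0.31, 0.10 and 0.05. DESeq2 also called *ARG1* and *ARG5,6* higher (adjusted p = 0.0215 and 0.0181).

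All 9 estimates were positive, where 51.0% of all genes had a positive one, and their median was log2 0.98 against 0.01 over all genes. Both ρ0 vector libraries lay above both ρ+ libraries for 6 of the 9 (*ARG5,6*, *ARG8*, *CPA1*, *ARG3*, *ARG1* and *ARG4*), as they did for 28.7% of all genes tested. *CPA1* kept its call in 16 of 16 alternative analyses. *ARG3* lost it without ρ+ replicate 0 (adjusted p = 0.0849), without ρ+ replicate 1 (0.0638) and without ρ0 vector replicate 1 (0.137, with a log2 value of 1.06).

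With *PDE2* in ρ0 cells, *CPA1* and *ARG3* fell against the ρ0 vector and no gene of the 9 rose. *CPA1* was 1.503-fold lower (log2 −0.59, SE 0.14, adjusted p = 0.0458, edgeR) and *ARG3* was 3.05-fold lower (log2 −1.61, SE 0.39, adjusted p = 0.0497, edgeR). The 2 of 9 compare with 0.995% of all genes called lower. Both values were close to the threshold of 0.05: leaving out any 1 library other than ρ0 vector replicate 0 left no gene of the 9 called, and *CPA1* passed in 6 of 16 alternatives and *ARG3* in 4 of the 14 that gave it an adjusted p. *ARG1* had a log2 value of −2.47 (SE 0.92), *ARG4* −1.98 (SE 0.60), *ARG5,6* −1.34 (SE 0.35) and *ARG7* −1.21 (SE 0.45), with adjusted p from 0.103 to 0.257 in edgeR. DESeq2 called *ARG1*, *ARG4* and *ARG7* lower, with adjusted p of 0.0298, 0.0123 and 0.00508, and gave *ARG5,6* no adjusted p.

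All 9 estimates were negative, with a median of log2 −1.21 against −0.02 over all genes, of which 46.9% had a positive one. Both ρ0 *PDE2* libraries lay below both ρ0 vector libraries for 6 genes (*ARG5,6*, *ARG7*, *CPA1*, *ARG3*, *ARG1* and *ARG4*), as for 26% of all genes tested. The comparison uses the same ρ0 vector libraries as the loss of mtDNA, so opposite signs in the pair of comparisons are not separate observations.

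With *TIP41* in ρ0 cells, no gene of the 9 passed in edgeR's test, where 0.412% of all genes did, 3 of the 9 had an unadjusted p under 0.05 (*ARG3*, *ARG5,6* and *ARG4*), and DESeq2 called 1 (*ARG5,6*). *ARG3* had a log2 value of −1.61 (SE 0.39, adjusted p = 0.129, edgeR), *ARG1* −1.86 (SE 0.88, 0.573) and *CPA1* −0.29 (SE 0.14, 0.501). All 9 estimates were again negative against the same ρ0 vector libraries, with a median of log2 −1.116. Both ρ0 *TIP41* libraries lay below both ρ0 vector libraries for *ARG2*, *ARG5,6*, *ARG7*, *CPA1*, *ARG3* and *ARG4*, 6 of 9 genes, as for 19% of all genes tested. With the replicate number as a block, *ARG3* (log2 −1.55, SE 0.34, adjusted p = 0.00918) and *ARG5,6* (log2 −1.07, SE 0.23, adjusted p = 0.0456) were called lower by edgeR. Under that block *ARG5,6* was also called after loss of mtDNA (log2 0.87, adjusted p = 0.0210) and with *PDE2* (log2 −1.33, adjusted p = 0.00761), which made 3 genes called in each.

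**Figure D2:**
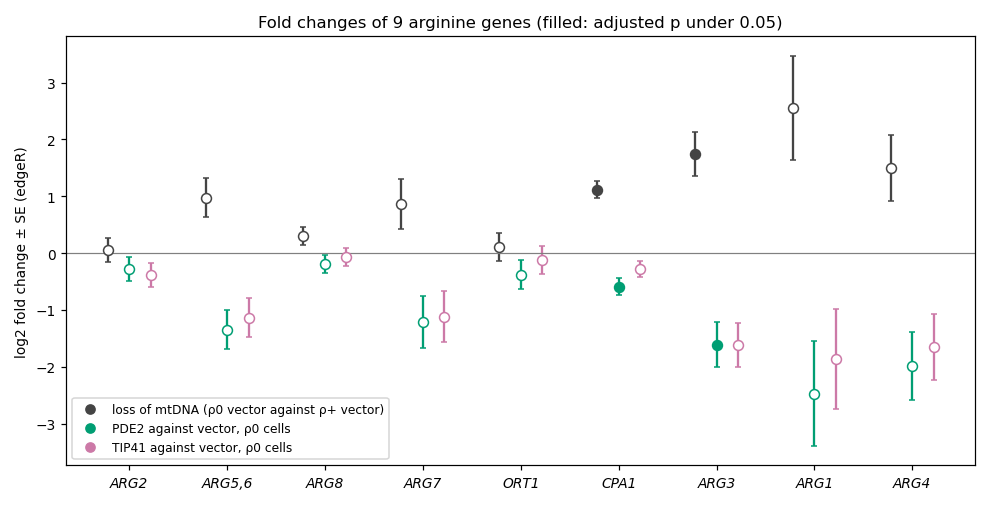
Log2 fold changes from edgeR with their SE as bars for the 9 genes (x axis) in 3 comparisons, the last pair against the same ρ0 vector libraries; filled points have an adjusted p under 0.05. *CPA1* and *ARG3* are filled after loss of mtDNA and with *PDE2*, no point is filled with *TIP41*, and *ARG1* has the largest estimates with the widest bars (2.56 ± 0.91 after loss of mtDNA).

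*PDE2* and *TIP41* were not separated by the arginine genes. Between the 2 plasmids 0 of 9 genes passed by edgeR's test or by DESeq2 and 0 had an unadjusted p under 0.05, while 0.394% of all genes passed edgeR's test. The lowest adjusted p was 0.758, for *CPA1*, at log2 −0.30 (SE 0.14) for *PDE2* relative to *TIP41*, although its libraries did not overlap. For *ARG1* the estimate of −0.61 had an SE of 0.97, so that a difference of several fold would not have been detectable.

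Against ρ+ cells, *CPA1* stayed higher in ρ0 cells with either plasmid and the other 8 genes did not pass, nor did any have an unadjusted p under 0.05. It was 1.78-fold higher with *TIP41* (log2 0.83, SE 0.14, adjusted p = 0.00302, edgeR), where 3.41% of all genes were called higher, and 1.44-fold higher with *PDE2* (log2 0.53, SE 0.14, adjusted p = 0.0480, edgeR), where 3.02% were. The first call was lost in 1 of 16 alternatives, without ρ+ replicate 0 (adjusted p = 0.0873), and the second passed in 7 of 16. The median of the 9 genes was log2 −0.01 with *TIP41* and −0.23 with *PDE2*. Both ρ0 *PDE2* libraries lay below both ρ+ libraries for *ARG5,6*, *ARG7*, *ORT1* and *ARG4*, 4 of 9 genes where 25% of all genes did so. Of these, *ARG4* (log2 −0.48, SE 0.61, adjusted p = 0.753, edgeR) was called only in a fit of the 2 groups alone (adjusted p = 0.0318).

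The spread of the 9 genes was uneven between groups. In ρ0 vector, replicate 1 was above replicate 0 by 4.65-fold for *ARG1*, 2.74-fold for *ARG4*, 2.47-fold for *ARG7*, 2.24-fold for *ARG3* and 2.16-fold for *ARG5,6*. These 5 genes lay outside the range that held 95% of all genes tested in that group (a log2 ratio of 0.75 in either direction), *ORT1* lay just inside it at 0.70, and *ARG2*, *ARG8* and *CPA1* had ratios of 0.40, 0.16 and −0.05. The same range was passed by none of the 9 genes in ρ+ vector or ρ0 *PDE2*, and in ρ0 *TIP41* by *ARG1* (1.02) and *ARG4* (0.83), where replicate 1 was again the higher. For 7 of the 9 genes, all but *ARG2* and *CPA1*, ρ0 vector replicate 1 was the highest of the 8 libraries, as it was for 18.7% of all genes tested. The sum of the 9 genes was 671 and 717 CPM in ρ+, 1160 and 2017 in ρ0 vector, 873 and 947 with *TIP41*, and 768 and 733 with *PDE2*.

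**Figure D3:**
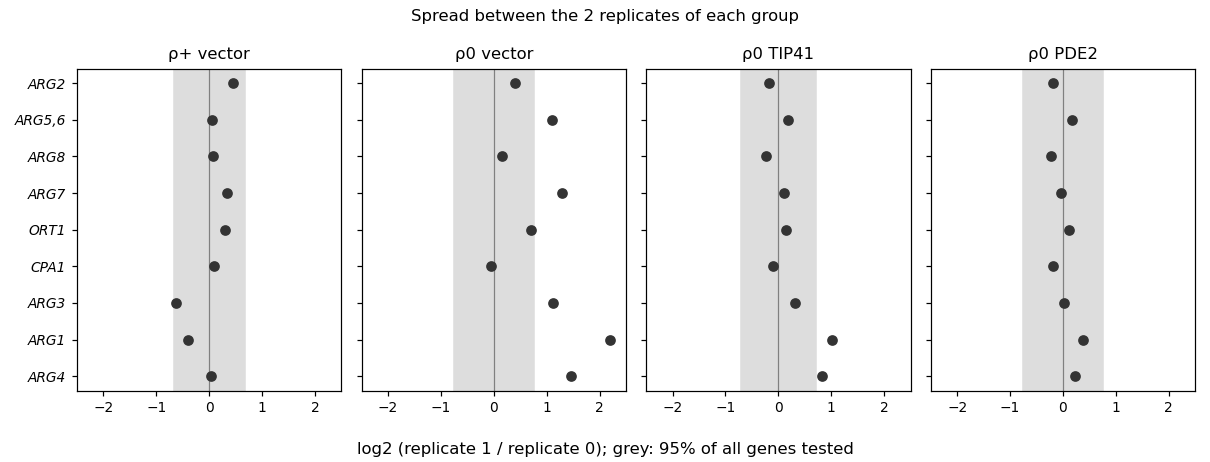
Log2 ratio of replicate 1 to replicate 0 (x axis) for the 9 genes in each group, with the range that holds 95% of all genes tested in grey. In ρ0 vector 5 genes lie outside the grey band, up to 2.21 for *ARG1*, against 2 in ρ0 *TIP41* and none in ρ+ vector and ρ0 *PDE2*.

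Other genes that Gcn4p activates were also compared between the ρ0 vector libraries. Of the 40 in the list, 3 lay outside that range (*HIS4*, *LYS1* and *HIS5*, named after their values were seen), and the median size of the log2 ratio, without regard to sign, was 0.33 for the 40, 1.102 for the arginine genes and 0.20 for all genes tested. *HIS4*, an enzyme of histidine synthesis, was the farthest at 243 and 708 CPM. Of 9 general stress markers, 4 lay outside it, with log2 ratios from −2.93 to 0.99. In the other groups 5 of these 9 markers lay outside the range of the group in ρ0 *TIP41*, 2 in ρ0 *PDE2* and 0 in ρ+ vector. Of 9 genes of glutamate metabolism taken up below, 3 lay outside the ρ0 vector range, with log2 ratios from −0.92 to −0.77. *GCN4* mRNA, which does not follow the protein because it is controlled in translation, was 1415 and 1128 CPM in the ρ0 vector libraries and 1128 to 1444 CPM over all 8. The part of stress, growth or the experimenter in the spread of the arginine genes was not tested.

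Within a replicate number, 1 library was set against 1 library, which allows no test. Among replicates 0 the loss of mtDNA went with 2.27-fold more *CPA1*, 1.90-fold more *ARG1*, 1.85-fold more *ARG3* and 1.53-fold more *ARG4*. Among replicates 1 the ratios were 2.07 for *CPA1*, 11.7 for *ARG1*, 6.74 for *ARG3* and 4.08 for *ARG4*. The sign was the same in both for each of these genes, and only *CPA1* of the 4 had ratios of like size. *ARG5,6* went from 1.27 to 2.64 and *ARG7* from 1.17 to 2.29. Over the 9 genes the median log2 ratio was 0.34 among replicates 0 and 1.19 among replicates 1, with 8 of 9 positive in each. For *PDE2* the medians were −0.52 and −1.71 and for *TIP41* −0.38 and −1.48, the larger value again within replicates 1. Across groups, replicates 1 against replicates 0 gave no call among the 9 genes in edgeR's test (1.68% of all genes) and 0 in DESeq2, with 2 unadjusted p under 0.05 and estimates up to log2 1.05 for *ARG1*. Without either 1 of the ρ0 *PDE2* libraries, 2 genes were called (*ARG5,6* and *ARG7*).

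**Figure D4:**
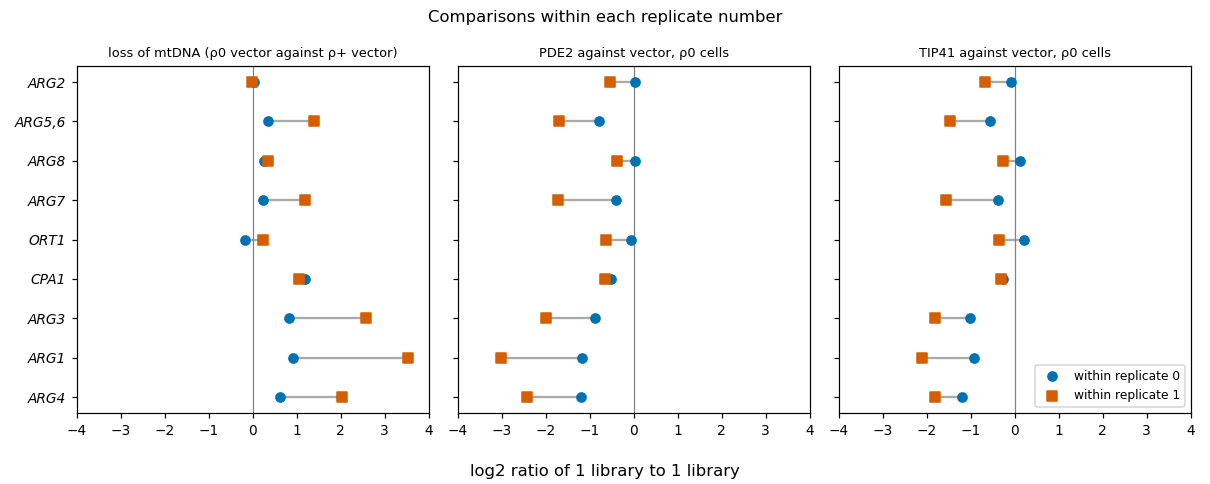
Log2 ratios of 1 library to 1 library (x axis) for the 9 genes in 3 comparisons, circles within replicate 0 and squares within replicate 1, joined by a line. After loss of mtDNA *CPA1* has close points (1.18 and 1.05) while those of *ARG1* lie at 0.92 and 3.53.

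*ARG5,6*, *ARG7*, *ARG3*, *ARG1* and *ARG4* varied together. Over the 8 libraries the 10 pairs among them had Pearson correlations of log2 CPM from 0.82 to 0.98 (median 0.93), against −0.09 to 0.82 (median 0.52) for the other 26 pairs. These 5 genes were grouped after their values were seen. Without ρ0 vector replicate 1 their correlations ran from 0.03 to 0.93 (median 0.64). The points share libraries and groups, so the values are descriptions.

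The non-members whose log2 CPM over the 8 libraries was most like the mean of the 9 genes were looked for among 5481 genes. The highest correlations were those of *LST4* (0.964), *BDS1* (0.959), *MMT2* (0.954), *CAD1* (0.949), *ARO1* (0.946), *YJR111C* (0.944) and *STR2* (0.938). *ARO1* encodes the multifunctional enzyme of the shikimate pathway to aromatic amino acids, *CAD1* a transcription factor of the AP-1 type, and *LST4* a factor for sorting of amino acid permeases. Without ρ0 vector replicate 1 the values fell to between 0.675 and 0.813. *BDS1* shows the shape: 40.6 and 42.8 CPM in ρ+, 51.5 and 88.0 in ρ0 vector, 40.2 and 47.8 with *TIP41*, and 36.7 and 44.3 with *PDE2*.

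*CAR1* encodes arginase, the first enzyme of arginine breakdown, and it moved the other way. It gave 109.9 and 138 CPM in ρ+ vector, 57.6 and 41.2 in ρ0 vector, 93.4 and 79.0 with *TIP41*, and 88.2 and 110.5 with *PDE2*. Both ρ0 vector libraries were the lowest of the 8. *CAR1* fell after loss of mtDNA (log2 −1.30, SE 0.18, adjusted p = 4.17e-04, edgeR) and was higher with *PDE2* (log2 1.01, SE 0.19, adjusted p = 0.0151, edgeR). The second call was lost without ρ0 vector replicate 1 (adjusted p = 0.0699), without ρ0 *PDE2* replicate 1 (0.104), in a fit of only the 2 groups (0.0957) and in limma with either pseudocount (0.194 and 0.195). With *TIP41* it was at log2 0.80 (SE 0.19, adjusted p = 0.129, edgeR), and with the replicate block it was called higher there (log2 0.81, adjusted p = 0.0185, edgeR). Of the 4 genes of arginine uptake and breakdown it was the only one to pass after loss of mtDNA or with *PDE2*. After loss of mtDNA 6.38% of all genes were called lower, and with *PDE2* 1.3% were called higher. The others, the permease genes *CAN1* and *ALP1* and the ornithine aminotransferase gene *CAR2*, did not pass.

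Of 6 regulators (*ARG80*, *ARG81*, *ARG82*, *MCM1*, *GCN4* and *GCN2*), *ARG80* rose after loss of mtDNA in edgeR's test, where 7.49% of all genes did. DESeq2 called 0 of the 6. With *PDE2* and with *TIP41* 0 passed by either tool, and 1 (*ARG80*) had an unadjusted p under 0.05 in each by edgeR's test. With *PDE2*, DESeq2 gave *ARG80* no adjusted p. *ARG80*, a DNA-binding subunit of the arginine repressor complex, gave 36.1 and 43.5 CPM in ρ+ vector, 56.5 and 60.9 in ρ0 vector, 43.5 and 36.9 with *TIP41*, and 42.03 and 42.9 with *PDE2*. Its log2 change after loss of mtDNA was 0.59 (SE 0.17, adjusted p = 0.0272, edgeR), and the call was lost without either ρ+ library (adjusted p = 0.306 and 0.0504), without ρ0 vector replicate 1 (0.127) and in limma with either pseudocount (0.249 in each). *GCN4* itself had a log2 change of 0.00 (SE 0.18).

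The 40 other genes that Gcn4p activates had a median log2 change of −0.05 after loss of mtDNA. *HIS5* rose (log2 0.88) and 4 fell, namely *LYS9* (−1.04), *LEU1* (−0.88), *BAT1* (−0.74) and *ARO2* (−0.49), which belong to the lysine, leucine, branched-chain and aromatic pathways. Of all genes tested 7.49% were called higher and 6.38% lower. With *PDE2* the median was 0.05 and *LYS9* rose (log2 0.89, where 1.3% of all genes were called higher). *ARO1* and *HOM3* fell (−0.64 and −0.60), where 0.995% of all genes were called lower. With *TIP41* 0 of the 40 passed by edgeR or DESeq2, 5 had an unadjusted p under 0.05, and the median was −0.09. Without ρ0 vector replicate 1, edgeR called 0 higher and 3 lower after loss of mtDNA (*BAT1*, *LYS9* and *TRP4*, the last an enzyme of tryptophan synthesis) and 0 with *PDE2*.

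Of 9 genes for enzymes that make or use glutamate or lead to its precursor 2-oxoglutarate, 5 rose and 1 fell after loss of mtDNA, where 7.49% and 6.38% of all genes did. The median was log2 1.47, and the counts were the same without ρ0 vector replicate 1. Among those that passed, the subunits of NAD-dependent isocitrate dehydrogenase led, *IDH2* at 3.72 (SE 0.20) and *IDH1* at 3.60 (SE 0.21), followed by aconitase (*ACO1*, 2.51) and a glutamate dehydrogenase (*GDH3*, 1.47). *CIT2*, the peroxisomal citrate synthase, had a log2 value of 2.12 (SE 0.48) that edgeR did not call (adjusted p = 0.0510) and DESeq2 did. *GDH1*, the main glutamate dehydrogenase of ammonium assimilation, fell (log2 −1.27, SE 0.17). With *PDE2*, *IDH1* and *IDH2* fell (−1.18 and −0.97) and *GDH1* rose (0.86), where 0.995% of all genes were called lower and 1.3% higher, and of these the *GDH1* call was lost without that library. With *TIP41* 1 of 9 fell (*IDH1*, −1.01), where 0.412% of all genes were called in either direction. Of 9 general stress markers tested, 1 rose after loss of mtDNA (*HSP104*, a chaperone), against 7.49% of all genes, a call that was lost without ρ0 vector replicate 1. With *PDE2* and *TIP41* 0 passed by edgeR or DESeq2, with 3 and 0 unadjusted p under 0.05. Some estimates with *PDE2* were large all the same: *HSP12* 2.84 (SE 1.14), *HSP26* 2.01 (SE 0.57), *ALD3* 0.97 (SE 0.24) and, downward, *HSP104* −0.69 (SE 0.30). Their adjusted p ran from 0.0526 to 0.287 (edgeR). *HSP12* stood at 230 and 71.0 CPM with *PDE2* against 4.03 to 36.0 in the other libraries. The medians of the markers were log2 0.34 after loss of mtDNA, 0.17 with *PDE2* and 0.24 with *TIP41*.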

How the data were processed

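Gene expression was measured in 8 cultures, grouped by their labels. The authors mapped reads to genome build R64 (TopHat2 2.0.14) and quantified genes in Cuffdiff 2.2.1.1. The estimated counts deposited by the authors are fragments per gene and library before scaling, and 12.3% of those above 0 are not whole (tolerance 0.001). The FPKM values deposited by the authors are scaled geometrically. A strand setting for counting was not given in the sources used here. The library kit marks strand. Deposited columns of the authors' own comparisons (fold changes, p-values and q-values) were not used.

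Estimated counts were rounded and tested with edgeR 4.0.16 (quasi-likelihood, robust, TMM scaling, filterByExpr, R 4.3.3) in 1 fit of all 4 groups, with 4 residual degrees of freedom, and p-values were adjusted over 5832 genes at a threshold of 0.05. The scripts were tested on simulated data. Alternatives were DESeq2 1.42.0, other scalings and filters, limma 3.58.1 on log2(FPKM + 1) and log2(FPKM + 0.1), only the groups compared, a replicate block, and leaving out each library. DESeq2 gave no adjusted p with *PDE2* for *ARG3*, *ARG5,6*, *ARG2*, *ARG8* and *ORT1*, and the filter of 50 counts left *ARG3* out.

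Deviations of samples with the same replicate number correlated at 0.27 to 0.62 in all 6 pairs of groups (4886 genes). The main fit of the group comparisons did not use this pairing. Replicate number entered only the replicate block, the test of replicates 1 against replicates 0 and the ratios within a replicate number. The members, lists and rules were chosen with earlier results of these data known. The rule for names covered the 9 genes, up to 4 genes a list that passed the test, and the 8 genes most like the mean of the 9. Of these 8, 1 is not reported here. *ARO2*, *ARO1*, *HOM3*, *GDH1*, *HSP104*, *HSP12*, *HSP26*, *ALD3*, *HIS4*, *LYS1*, *CIT2* and *TRP4* were named after their values were seen. The deposited locus of *ARG5,6* overlaps that of *YER068C-A*, which had 1.07 to 16.5 fragments a library. The other 8 genes have the same start and end in the RefSeq annotation.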

Additional observations from a re-analysis of the deposited data

How the results depend on the processing

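Counts of the 9 genes called were 2 after loss of mtDNA, 2 with *PDE2*, 0 with *TIP41*, 1 for ρ0 *PDE2* against ρ+, 1 for ρ0 *TIP41* against ρ+, and 0 for replicates 1 against replicates 0 and for *PDE2* against *TIP41*. After loss of mtDNA DESeq2 called 4, a filter of 50 counts 1, and leaving out a library 1 to 6. With *PDE2* DESeq2 called 4, the filter of 50 counts 1, a fit of only the 2 groups 0, limma with either pseudocount 0, and leaving out a library 0 to 6. With *TIP41* DESeq2 called 1, the replicate block 2, and leaving out a library 0 to 4. The calls of 6, 6 and 4 came without ρ0 vector replicate 0, which leaves replicate 1 alone in that group and assumes that it varies like the others. For ρ0 *PDE2* against ρ+ no filter gave 0, a fit of only the 2 groups 2, limma with either pseudocount 0, and leaving out a library 0 to 1. For ρ0 *TIP41* against ρ+ leaving out a library gave 0 to 1, and for the replicates 0 to 2.

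Over single genes, 413 of 477 values kept their direction and side of the threshold, 34 lost a call, 22 gained one and 8 changed sign. Values to which DESeq2 gave no adjusted p were counted as not called, so that of *ARG3* with *PDE2* is among the calls lost. Leaving out a library moved *ARG2* after loss of mtDNA over −0.21 to 0.25, the negative values coming without ρ+ replicate 0 (−0.21) and without ρ0 vector replicate 1 (−0.15). *ORT1* moved over −0.29 to 0.43, negative in the same settings (−0.08 and −0.29). *ORT1* with *PDE2* ran from −0.70 to 0.015 and with *TIP41* from −0.44 to 0.28, both highest without ρ0 vector replicate 1. *ARG8* with *TIP41* ran from −0.20 to 0.013, positive without that library or without *TIP41* replicate 1 (0.012). The replicate block changed no call among the 9 genes beyond those given beside the results. The cause of these changes was not tested. With 2 replicates a group, and 7 to 82 fragments for *ARG3*, real differences could be missed, above all in genes whose ρ0 vector replicates lay far apart. *CPA1*, with close replicates there, was called at log2 −0.59 with *PDE2*, while *ARG1* was not called at −2.47 (edgeR).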
